A study of Mus musculus with 9 samples.

Results

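The 7 genes described here encode the catenins and their junction partners: Jup, Ctnna1, Ctnnb1, Ctnnd1, Cdh1, Dsp and Pkp4. They were chosen by symbol, matched to the Ensembl identifiers of a table of 53465 mouse genes, and all 7 were found in it. Bulk RNA sequencing covered 9 mouse macrophage samples, 3 in each of 3 groups. Lining macrophages (samples A, B and C) were CD45+CD11b+F4/80+GFP+ cells, and interstitial macrophages (samples D, E and F) were CD45+CD11b+F4/80+GFP- cells, both sorted from hind paw synovial tissue of healthy Cx3cr1-GFP mice, a strain with green fluorescent protein (GFP) under the control of the fractalkine receptor gene. The third group (samples G, H and I) held bone marrow-derived macrophages (BMDM), differentiated from C57BL/6 precursors over 5 days of culture with MCSF, the colony-stimulating factor for macrophages. The series title calls resident synovial macrophages a protective barrier of the joint, and the 3 groups allow the transcripts of cell junction genes to be set side by side in lining, interstitial and cultured macrophages. The sort marker separates the tissue groups, whereas the BMDM differ from both in strain, tissue and culture, and these cannot be told apart. The labels do not say whether the samples of a group came from separate animals or pools, so p-values measure the spread between these samples.

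Cadherins are adhesion receptors that bind like cadherins on a neighbouring cell. Inside the cell, β-catenin or its close relative plakoglobin binds the cadherin tail, α-catenin links that complex to actin, and p120-catenin holds the cadherin at the surface. In desmosomes, plakoglobin and plakophilins join the desmosomal cadherins to desmoplakin, which anchors intermediate filaments, and β-catenin also acts in the nucleus as the co-activator of canonical Wnt signalling.

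Total counts per library ranged from 2194920 to 22499823, with the 3 BMDM libraries the deepest, and 12610 genes passed the filter on low counts. Values are given as CPM, read counts per gene scaled to a common library total, with library sizes adjusted by the trimmed mean of M values (TMM). All 10 macrophage identity genes on the marker list, such as Csf1r and Adgre1, had counts in every library, but their levels differed. They summed to between 24300 and 30900 CPM in lining, 13900 and 23500 CPM in interstitial and 15300 and 19400 CPM in BMDM. The lowest sum was that of F. By edgeR, 2 of the 10 were higher in lining than in interstitial at an adjusted p under 0.05 and none lower. Cx3cr1, whose reporter defined the sort, lay between 663 and 775 CPM in lining, between 2.66 and 7.86 CPM in interstitial and between 236 and 311 CPM in BMDM samples. Lining sample C and interstitial sample F stood apart from the other samples of their groups. Arg1, the arginase of alternatively activated mouse macrophages, which was named after its values were seen, reached 1249 CPM in C and 2324 CPM in F, against at most 2.86 CPM in the other 7 libraries. The edgeR fit was therefore also made without C and F.

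Jup was the member with the clearest differences, and it separated all 3 groups. Lining macrophages carried less Jup transcript than interstitial macrophages and more than BMDM. Pkp4 was lower in both synovial groups than in BMDM. Ctnnb1 stayed within a narrow range of levels, Cdh1 was driven by 1 library in each synovial group, and Dsp had single-digit counts in every library. In the lining against interstitial comparison, edgeR's quasi-likelihood test called 1 of the 6 members tested, Jup, at a Benjamini-Hochberg adjusted p under 0.05. It was lower in lining, and of all genes tested 5.79% were called, 3.74% higher and 2.05% lower. In the lining against BMDM comparison, 3 members were called higher and 1 lower of 6 tested, beside 43.5% of all genes called, 23.1% higher and 20.5% lower. In the interstitial against BMDM comparison, 3 were called higher and 1 lower of 6, beside 44.8% of all genes, 23.4% higher and 21.3% lower. Calls against BMDM were thus common among all genes, and the members' counts there are read against that background.

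**Figure D1:**
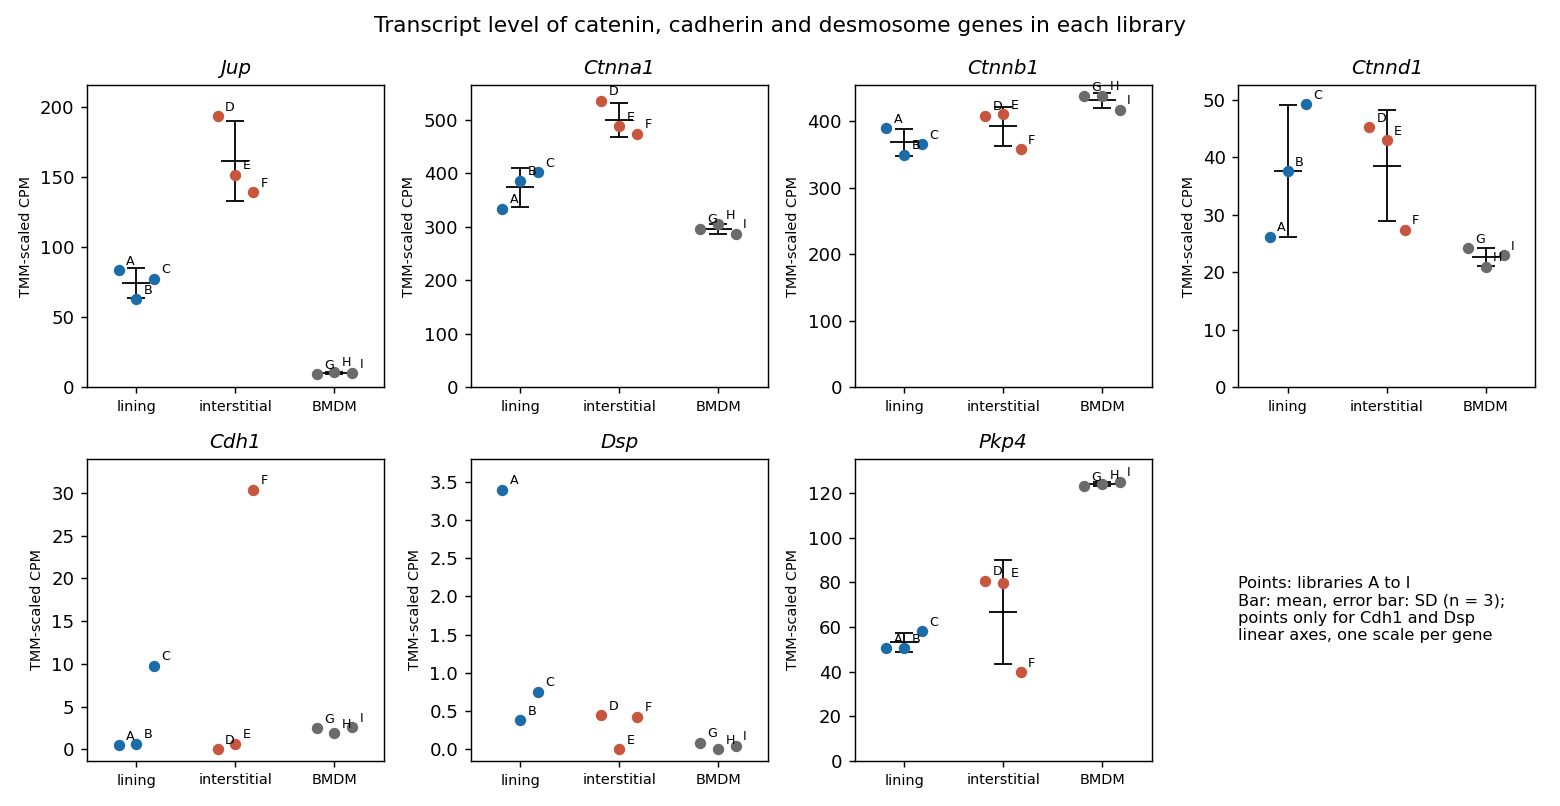
TMM-scaled CPM (linear axes, 1 scale per gene) of the 7 members, with lining at the left, interstitial in the middle and BMDM at the right; points are single libraries A to I, and bars are the mean ± SD (n = 3), left out for Cdh1 and Dsp. Jup falls into 3 separate groups, between 62.6 and 83.4 CPM in lining, 139 and 194 CPM in interstitial and 9.25 and 11 CPM in BMDM, whereas Cdh1 shows 1 high library in each synovial group.

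Jup and Pkp4 were the members called with the largest differences from BMDM in each direction, and their promoters are shown for that reason. Each stretch holds the 250 bases before the RefSeq transcript start (GRCm38.p6), read 5′ to 3′ on the gene's strand. The Jup window is chr11:100397791-100398040 on the minus strand and the Pkp4 window is chr2:59160600-59160849 on the plus strand, the first of its 2 RefSeq starts. Capitals mark CCAAT or its reverse complement ATTGG.
Jup: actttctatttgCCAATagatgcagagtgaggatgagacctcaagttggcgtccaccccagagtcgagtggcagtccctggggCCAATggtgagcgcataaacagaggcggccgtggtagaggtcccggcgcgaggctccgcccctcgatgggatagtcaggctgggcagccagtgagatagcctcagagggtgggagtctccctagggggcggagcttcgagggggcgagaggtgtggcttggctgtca
Pkp4: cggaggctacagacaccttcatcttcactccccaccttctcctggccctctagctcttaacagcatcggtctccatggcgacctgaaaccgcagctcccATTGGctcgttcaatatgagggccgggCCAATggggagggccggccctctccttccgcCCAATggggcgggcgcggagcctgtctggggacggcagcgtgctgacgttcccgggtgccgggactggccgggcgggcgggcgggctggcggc
The Jup window held 2 matches to CCAAT, 2 to GGGCGG and 0 to TATAAA on either strand, and the Pkp4 window held 3, 5 and 0 in the same order. Of all 32851 RefSeq promoter windows of this length, 33.8% held CCAAT, 32.7% held GGGCGG and 12.4% held TATAAA. These matches describe the letters of the windows and do not show that a factor binds there. Both windows shown thus held CCAAT and GGGCGG and no TATAAA, whereas the window before the second RefSeq start of Pkp4 held 0 matches to each. The pattern was not particular to these genes. The window before the first RefSeq start of Ctnnb1 held 2, 3 and 0 matches in the same order, and that before its second start held 0, 2 and 1. The part of these matches in the transcript levels was not tested.

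Cdh1 (ENSMUSG00000000303, chr8:106603351-106670246, plus strand, GRCm38) encodes E-cadherin, the classical cadherin of epithelia, which alternatively activated mouse macrophages can also express. Counts of Cdh1 were 1, 7 and 26 in lining samples A, B and C, 0, 7 and 143 in interstitial samples D, E and F, and 57, 38 and 56 in BMDM samples G, H and I. In CPM these were 0.485, 0.668 and 9.76 in lining, 0, 0.637 and 30.4 in interstitial, and 2.47, 1.89 and 2.58 in BMDM. Samples C and F were high, the other 4 synovial samples were below every BMDM sample, and the BMDM samples lay close together. Of the 34 lining counts, 26 came from C, and of the 150 interstitial counts, 143 came from F.

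No difference in Cdh1 was called by edgeR: the log2 fold change was -1.60 ± 1.56 (SE) for lining against interstitial (adjusted p = 0.640), 0.57 ± 1.55 for lining against BMDM (adjusted p = 0.794) and 2.17 ± 1.49 for interstitial against BMDM (adjusted p = 0.266). These signs depended on C and F. Without F, lining minus interstitial was 2.92 and interstitial minus BMDM was -2.37, and without C, lining minus BMDM was -1.90. With both C and F left out, the values were 0.39 for lining minus interstitial, -1.91 for lining minus BMDM and -2.29 for interstitial minus BMDM, the last with an edgeR adjusted p of 0.0451. That fit was added after the data were seen, and it removes the libraries with most Cdh1 counts of each synovial group. Its signs against BMDM follow from that choice, and its adjusted p is not read as a difference in Cdh1.

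The genes whose profile over the 9 libraries lay nearest to that of Cdh1 were sought after its values had been seen, by the root mean square difference of the centred log2(CPM + 1) values among 8884 genes. Ero1l, an oxidase of protein folding in the endoplasmic reticulum, was nearest at 0.543. Its levels were 38.8, 30.5 and 128 CPM in lining, 21.3, 25.2 and 213 CPM in interstitial and 58.9, 58.0 and 60.2 CPM in BMDM. The next were Glipr2 at 0.745 and AA467197 at 0.771, and AA467197 reached 55.6 CPM in C and 141 CPM in F. All 3 were highest in C and F within their groups, like Cdh1, but they were chosen for likeness to it, so this is no separate result. Retnla and Chil3, markers of alternative activation in mouse macrophages named after their values were seen, also had their highest value of each synovial group in C and F. Retnla was at 6.79, 11.7 and 424 CPM in lining and at 506, 226 and 2031 CPM in interstitial samples, with at most 0.0461 CPM in BMDM. Mrc1 and Ccl24, genes linked to alternative activation that were also chosen after their values were seen, did not follow this order in the interstitial group. Mrc1 was at 1425, 1667 and 2013 CPM in lining and at 5146, 3578 and 2859 CPM in interstitial samples, and Ccl24 at 44.1, 44.6 and 64.2 CPM in lining and at 360.4, 199 and 184 CPM in interstitial samples. Both were highest in C within lining and lowest in F within interstitial. The keratinocyte and epithelium markers summed to between 6.87 and 9.70 CPM in lining, 4.88 and 10.4 CPM in interstitial and 4.06 and 5.02 CPM in BMDM, with Krt1 and Trp63 at 0 counts in every library. The epithelial sum was 7.13 CPM in C, between those of A and B, and 10.4 CPM in F, the highest of the interstitial group. The Langerhans and dendritic cell markers summed to 43.2 CPM in C, the highest of lining, and to 105 CPM in F, between D and E. Among them Ccr7 (23.2 CPM) and Ly75 (9.56 CPM) were highest in F within its group, and Cd209a (32.5 CPM) was lowest there. The neutrophil markers summed to 1.13 CPM in C, between A and B, and to 82.0 CPM in F, the highest of interstitial. The endothelial markers summed to 48.1 CPM in C and to 142 CPM in F, each the highest of its group. The synovial fibroblast markers summed to 305 CPM in C, the highest of lining, and to 373 CPM in F, between D and E. The part of these markers in the Cdh1 values was not tested.

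**Figure D2:**
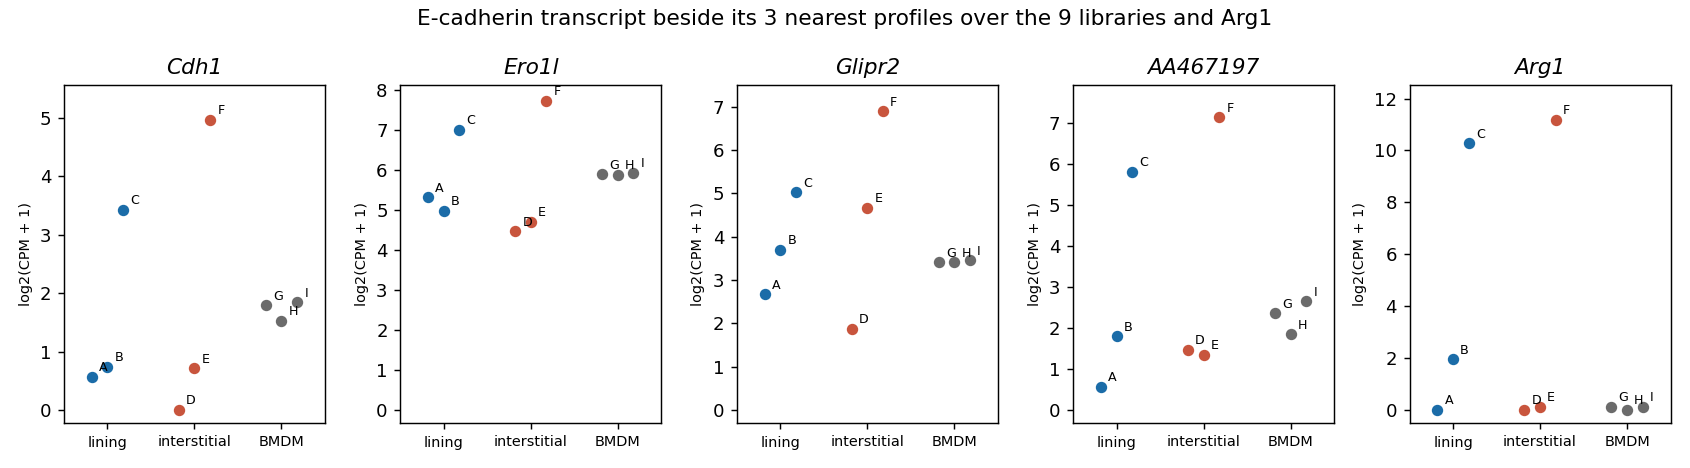
Log2(CPM + 1) per library of Cdh1, its 3 nearest profiles (Ero1l, Glipr2 and AA467197) and Arg1, with lining at the left, interstitial in the middle and BMDM at the right; points are single libraries. Libraries C and F hold the highest values of every gene drawn, at 9.76 and 30.4 CPM for Cdh1 and 1249 and 2324 CPM for Arg1. The 3 profiles were chosen for nearness to Cdh1, and Arg1 was chosen after its values were seen.

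Ctnnb1 (ENSMUSG00000006932, chr9:120929216-120960507, plus strand) encodes β-catenin. Its levels were 389, 349.5 and 365 CPM in lining, 408, 411 and 358 CPM in interstitial and 438, 439 and 418 CPM in BMDM. All 9 libraries lay within this band, and every synovial library was below every BMDM library, while lining and interstitial overlapped. None of its differences was called by edgeR: -0.09 ± 0.12 for lining against interstitial (adjusted p = 0.732), -0.23 ± 0.12 for lining against BMDM (adjusted p = 0.137) and -0.14 ± 0.12 for interstitial against BMDM (adjusted p = 0.374). The lining against BMDM difference was called without D (adjusted p = 0.0484) and without F (adjusted p = 0.0345), and in a fit of those 6 samples alone (adjusted p = 0.0336).

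Jup (ENSMUSG00000001552, chr11:100368958-100397763, minus strand) encodes plakoglobin, the catenin shared by adherens junctions and desmosomes. Jup was at 83.4, 62.6 and 77.3 CPM in lining, at 194, 152 and 139 CPM in interstitial and at 9.25, 11 and 9.73 CPM in BMDM. The interstitial samples were highest, the lining samples lay between, the BMDM samples were lowest, and no groups overlapped. The lining against interstitial log2 fold change was -1.12 ± 0.18 (edgeR, adjusted p = 0.00253). Against BMDM it was 2.89 ± 0.19 for lining, a 7.39-fold difference (adjusted p = 2.06e-07), and 4.01 ± 0.19 for interstitial, a 16.1-fold difference (adjusted p = 1.74e-08). These comparisons share samples and are not independent of each other. All 3 calls held in each of 16 alternative fits, and the lining against interstitial value stayed between -1.27 and -1.0. In bulk RNA, fewer cells that carry a transcript and less of it per cell cannot be told apart.

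The 3 genes of mean CPM of at least 10 with the centred log2(CPM + 1) profiles most like that of Jup over the 9 libraries were sought among 8883 candidates. Eps8, an actin capping and bundling protein, was nearest at a root mean square difference of 0.218, with 163, 182 and 187 CPM in lining, 486, 429 and 341 CPM in interstitial and 33.3, 33.2 and 31.8 CPM in BMDM. Klhl33 followed at 0.247 and Dgat2, an enzyme of triglyceride synthesis, at 0.275. These profiles share the order interstitial, lining, BMDM with Jup, which over 3 groups many genes can share.

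Markers of other cell types moved with some of these groups. The 10 Langerhans and dendritic cell markers summed to between 6.79 and 43.2 CPM in lining, 96.0 and 145 CPM in interstitial and 20.0 and 24.0 CPM in BMDM, and 1 of the 7 tested, Cd209a, was called lower in lining than in interstitial. The 9 synovial fibroblast markers summed to between 173 and 305 CPM in lining, 191 and 695 CPM in interstitial and 2.25 and 3.13 CPM in BMDM, with none of 9 called by edgeR between the synovial groups (2 with an unadjusted p under 0.05, Dcn and Pdgfra, which DESeq2 called, and 2 called by limma-voom) and 8 of 9 called higher in each synovial group than in BMDM. The 9 endothelial markers summed to between 34.3 and 48.1 CPM in lining, 50.1 and 142 CPM in interstitial and 141 and 147 CPM in BMDM, where Vwf and Kdr made up most of the sum. By edgeR, 1 of the 7 endothelial markers tested, Pecam1, was called lower in lining than in interstitial and none higher. Against BMDM, 1 of the 7 was called higher and 2 lower in lining, and 4 higher and 1 lower in interstitial. The highest Jup value of the interstitial group was in D, whose fibroblast sum of 191 CPM was the lowest of that group and whose dendritic cell sum of 145 CPM was the highest. In lining the highest Jup value was in A, whose fibroblast sum of 173 CPM and dendritic cell sum of 6.79 CPM were both the lowest of that group. The part of these markers in the Jup differences was not tested.

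Ctnna1 (ENSMUSG00000037815, chr18:35118888-35254773, plus strand) encodes αE-catenin, the link from the cadherin complex to actin. Its levels were 334, 386 and 403 CPM in lining, 536, 489 and 475 CPM in interstitial and 297, 305 and 287 CPM in BMDM. The groups did not overlap, and they stood in the same order as for Jup. The interstitial against BMDM difference of 0.75 ± 0.12 was called by edgeR (adjusted p = 3.83e-04) in all 16 alternatives. Lining exceeded BMDM by 0.34 ± 0.12 on the log2 scale (adjusted p = 0.0417), a call that was lost on leaving out any of B, C, D, F, G, H or I, with adjusted p between 0.0504 and 0.229. The same call was lost without C and F (0.27, adjusted p = 0.0669), without the filter on low counts (0.21, adjusted p = 0.320) and with a filter on mean CPM (0.305, adjusted p = 0.0629). Lining minus interstitial was -0.42 ± 0.12 and was not called (adjusted p = 0.0742). It was called without F (adjusted p = 0.0396), without C and F (adjusted p = 0.0339), with DESeq2 (adjusted p = 0.00208) and with limma-voom (adjusted p = 0.0338).

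Ctnnd1 (ENSMUSG00000034101, chr2:84600071-84650765, minus strand) encodes p120-catenin, which stabilises cadherins at the cell surface. Ctnnd1 was at 26.2, 37.6 and 49.2 CPM in lining, at 45.2, 42.95 and 27.4 CPM in interstitial and at 24.1, 21.0 and 23.0 CPM in BMDM. The synovial groups spread widely and overlapped each other, and both lay above BMDM. The log2 fold change was 0.74 ± 0.26 for lining against BMDM (edgeR, adjusted p = 0.0391) and 0.76 ± 0.26 for interstitial against BMDM (adjusted p = 0.0325), and -0.02 ± 0.27 between the synovial groups (adjusted p = 0.981). The lining call was lost on leaving out B, C, E, G, H or I (adjusted p between 0.0501 and 0.154), and the interstitial call on leaving out B, D, E, G, H or I (adjusted p between 0.0556 and 0.119). Without the filter on low counts neither was called (adjusted p = 0.0967 for lining and 0.0702 for interstitial), and without C and F the lining call was lost (adjusted p = 0.0580). Of the 7319 exon bases of Ctnnd1, 4482 are shared with Gm28635, a gene on the same strand that had 0 counts in every library, so reads there are left unassigned when featureCounts runs without its option for overlapping genes, and the levels understate Ctnnd1.

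Dsp (ENSMUSG00000054889, chr13:38151294-38198577, plus strand) encodes desmoplakin, the plakin that ties desmosomes to intermediate filaments. Dsp had 7, 4 and 2 counts in lining, 1, 0 and 2 counts in interstitial and 2, 0 and 1 counts in BMDM, and did not pass the filter. Each lining library had at least 2 counts, and the interstitial and BMDM groups each held a library with none. The summed rate was 5.12 times as high in lining as in interstitial (95% exact interval 1.41 to 28) and 18.5 times as high in lining as in BMDM (5.09 to 101). For interstitial over BMDM the ratio was 3.62 (0.484 to 27.0). These intervals cover counting error within the summed libraries only, without the spread between samples, and 7 of the 13 lining counts came from A. In a fit without the filter on low counts, edgeR called Dsp higher in lining than in BMDM.

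The desmosomal cadherins, the adhesion receptors of the desmosome, were at or near 0 counts. Of 9 desmoglein and desmocollin genes, 7 had 0 counts in all libraries, and the remaining 2, Dsg2 and Dsc1, had 2 counts and 1 count in all.

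Pkp4 (ENSMUSG00000026991, chr2:59160850-59355208, plus strand) encodes plakophilin-4, an armadillo protein of the p120 family found at cell junctions. Its levels were 50.4, 50.6 and 58.2 CPM in lining, 80.7, 79.9 and 39.7 CPM in interstitial and 123, 124 and 125 CPM in BMDM. All synovial libraries were below all BMDM libraries, and F was below every lining library while D and E were above them. Pkp4 was lower than in BMDM by edgeR in lining, with a log2 fold change of -1.23 ± 0.23 (adjusted p = 0.00112), and in interstitial, with -0.90 ± 0.23 (adjusted p = 0.00678), and both calls held in all 16 alternatives. Lining minus interstitial was -0.33 ± 0.23 and was not called (adjusted p = 0.485). Without F it was -0.63 (adjusted p = 0.0235), and without C and F it was -0.68 (adjusted p = 0.0136).

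The profiles most like that of Pkp4, by the same measure, were those of Fgd4, an exchange factor for Cdc42, at 0.115, and Nup107, a nucleoporin, at 0.163. Fgd4 was at 54.8, 57.6 and 73.6 CPM in lining, 83.8, 101 and 47.2 CPM in interstitial and 129, 126 and 132 CPM in BMDM. Fgd4 shares with Pkp4 the low value in F, but it was chosen for likeness to Pkp4, so this is no separate result.

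**Figure D3:**
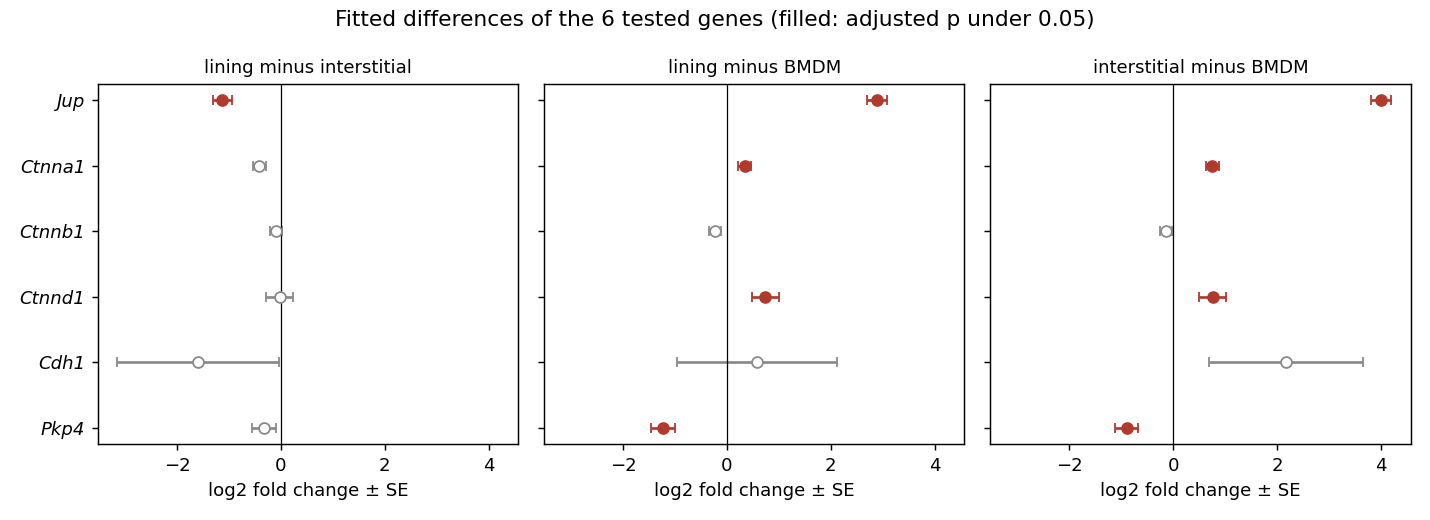
Log2 fold changes with standard errors for the 6 members tested in lining minus interstitial, lining minus BMDM and interstitial minus BMDM, from the edgeR fit over all 9 libraries; filled symbols were called at an adjusted p under 0.05. Jup lies at -1.12, 2.89 and 4.01 with small errors, the farthest from 0 in both comparisons with BMDM. Cdh1 has the widest errors and lies farthest from 0 in lining minus interstitial, at -1.60.

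Over the 6 members tested, all 6 log2 fold changes for lining minus interstitial were negative, with a median of -0.37 beside -0.01 over all genes tested, although only that of Jup was called. The sign of Ctnnd1 (-0.02) turned without A, D or E, and that of Cdh1 (-1.60) turned without F and without C and F together. The shared sign is therefore not read as a common change of the members. The groups did not overlap for 2 of the 6, Jup and Ctnna1, beside 18.6% of all genes. Against BMDM the members split, with 4 of 6 positive in each comparison and medians of 0.46 in lining and 0.76 in interstitial, beside 0.00014 and -0.01 over all genes. Groups did not overlap for 5 of 6 in the lining against BMDM comparison, beside 63.1% of all genes, and for 5 of 6 in the interstitial against BMDM comparison, beside 62.2%.

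Levels per kilobase of exon set the members side by side within a library. Ctnna1 stood at 101 ± 9.77 CPM per kilobase in lining, 135 ± 8.64 in interstitial and 80.1 ± 2.36 in BMDM (SD, n = 3 each). Ctnnb1 stood at 70.9 ± 3.88 in lining, 75.6 ± 5.71 in interstitial and 83.1 ± 2.29 in BMDM. Ctnna1 was above Ctnnb1 in every synovial library and just below it in every BMDM library, and the ratio of Ctnna1 to Ctnnb1 averaged 1.43 in lining, 1.79 in interstitial and 0.964 in BMDM. Jup followed at 11.6 ± 1.66 CPM per kilobase in lining, 25.1 ± 4.43 in interstitial and 1.55 ± 0.143 in BMDM. Pkp4 stood at 9.30 ± 0.778 in lining, 11.7 ± 4.11 in interstitial and 21.7 ± 0.188 in BMDM. The ranges of Jup and Pkp4 overlapped in lining, whereas in BMDM every Pkp4 value was above every Jup value. Ctnnd1, over its full exon length, was at 5.15 ± 1.57 in lining, 5.26 ± 1.33 in interstitial and 3.10 ± 0.219 in BMDM, and over its unshared 2837 bases at 13.3 in lining, 13.6 in interstitial and 8 in BMDM. By group means Ctnnd1 lay below Jup and Pkp4 in lining over the full length and above both over the unshared bases, and in interstitial its place changed in the same way relative to Pkp4 but not to Jup. In BMDM it lay between Jup and Pkp4 over either length. Cdh1 and Dsp were lowest in group means.

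Plakoglobin and β-catenin bind the same site of the cadherin tail, and the share of Jup in the summed level per kilobase of Jup and Ctnnb1 was therefore computed per library. The share was 14.7%, 12.6% and 14.6% in lining, 27.7%, 23.0% and 23.9% in interstitial and 1.68%, 1.99% and 1.85% in BMDM. The groups did not overlap. It averaged 14.0% ± 1.18 in lining, 24.8% ± 2.51 in interstitial and 1.84% ± 0.156 in BMDM (SD, n = 3 each), and the exact permutation test (two-sided) gave p = 0.1 for each pair of groups, the smallest value that 3 against 3 samples allow. The share uses the same Jup values that already separated the groups, so it is not separate from the Jup result.

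**Figure D4:**
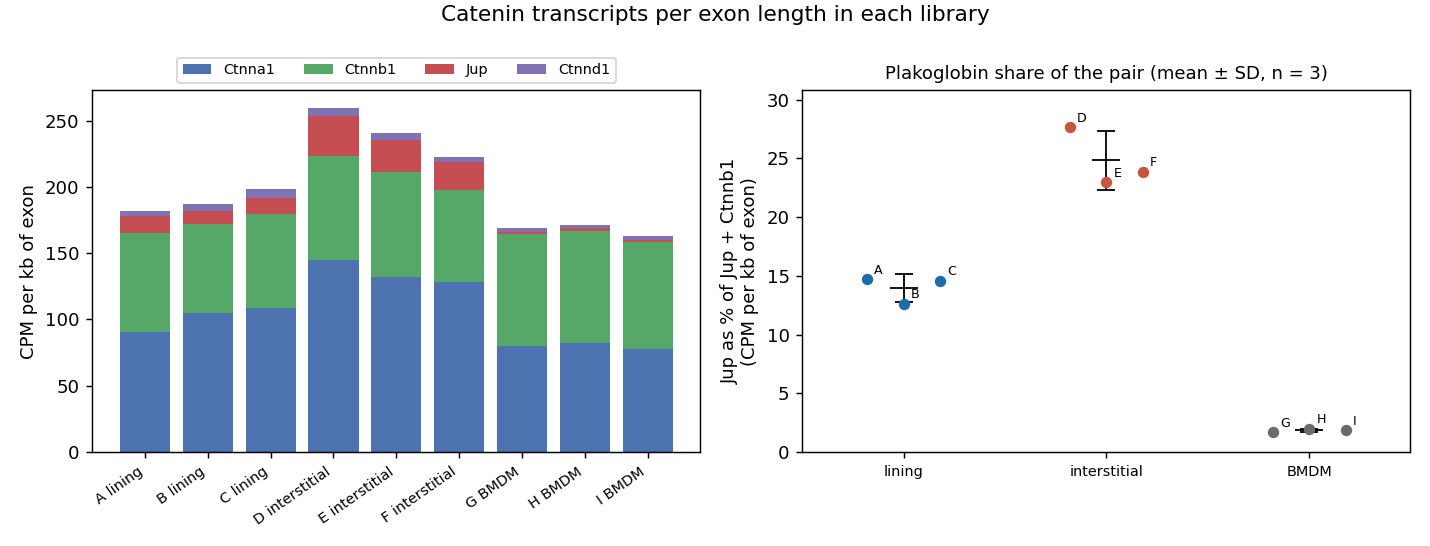
Left, stacked bars of the level of Ctnna1, Ctnnb1, Jup and Ctnnd1 in each library, in CPM per kilobase of exon. Right, the share of Jup in Jup plus Ctnnb1 (percent) per library, with the mean ± SD (n = 3), which averages 14.0% in lining, 24.8% in interstitial and 1.84% in BMDM.

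Of the other genes of the pathway, 83 were tested. In lining against interstitial, 7 were called higher and 3 lower, 12% of them, beside 5.79% of all genes, and their median log2 fold change was -0.0019 beside -0.01 over all genes. Lists were described by their counts only, and nothing particular to a list is read from them.

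Among plakins and desmosomal genes, 2 of 3 tested were called higher in lining than in interstitial and none lower. Dst, which encodes dystonin, a plakin linking cytoskeletal filaments, was at 271 ± 9.96 CPM in lining and 95.8 ± 13.4 CPM in interstitial, a log2 fold change of 1.5 ± 0.13 (SE; edgeR, adjusted p = 5.07e-05). Macf1, a plakin that crosslinks microtubules and actin, was at 677 ± 154 CPM in lining and 383 ± 102 CPM in interstitial (0.82 ± 0.21, adjusted p = 0.0402). The Macf1 call was lost on leaving out any of B, C, D, F, G, H or I (adjusted p up to 0.131) and of C and F together (0.147), and that of Dst held in all 16 alternatives.

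Among nectin, afadin and actin linker genes, 2 of 14 tested were called higher and 1 lower in lining. Pdlim7, a LIM protein of actin fibres, was at 99.8 ± 18.8 CPM in lining and 35.1 ± 10.9 CPM in interstitial (1.48 ± 0.22, edgeR adjusted p = 0.00197). Actn1, an actin crosslinker, was at 202 ± 21.8 CPM in lining and 114 ± 27.0 CPM in interstitial (0.82 ± 0.17, adjusted p = 0.0144). Zyx, the focal adhesion protein zyxin, was at 272 ± 23.8 CPM in lining and 475 ± 157 CPM in interstitial (-0.80 ± 0.20, adjusted p = 0.0343). The Actn1 call was lost without A, B or E (adjusted p up to 0.0655), and the Zyx call without A, B, C, E, G or H (adjusted p up to 0.124) and without C and F together (0.0781).

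Vav2, a guanine nucleotide exchange factor that binds p120-catenin, was the 1 of 8 p120-catenin partners called, at 108 ± 15.4 CPM in lining and 49.2 ± 3.80 CPM in interstitial (1.13 ± 0.16, edgeR adjusted p = 0.00154). Of 13 genes of the β-catenin destruction complex, which marks β-catenin for degradation, 1 was called higher and 1 lower in lining. Csnk1e, casein kinase 1 epsilon, was at 127 ± 8.54 CPM in lining and 68.4 ± 5.85 CPM in interstitial (0.90 ± 0.14, adjusted p = 0.00282). Ppp2ca, a catalytic subunit of protein phosphatase 2A, was at 197 ± 15.2 CPM in lining and 272 ± 13.5 CPM in interstitial (-0.47 ± 0.12, adjusted p = 0.0402), a call lost without A, B, E, G, H or I (adjusted p up to 0.105). Of 11 nuclear partners of β-catenin, 1 was called lower: Tle3, a co-repressor, at 76.9 ± 14.1 CPM in lining and 123 ± 5.44 CPM in interstitial (-0.67 ± 0.15, adjusted p = 0.0251), lost without A, C, E, G or H (adjusted p up to 0.0832). In a fit of the 6 synovial samples alone, Macf1 (adjusted p = 0.0835), Zyx (0.0777), Ppp2ca (0.191) and Tle3 (0.0939) were not called, and Ppp2ca was not called without the filter on low counts (0.0797). None of 14 Wnt receptors and transducers, 5 Wnt target genes, 9 cadherin turnover genes or 4 other catenin and plakophilin genes was called by edgeR between lining and interstitial. Of these 32 genes, 6 had an unadjusted p under 0.05, DESeq2 called 2, Adam10 and Axin2, and limma-voom called 1. Of 4 other cadherin genes, 1 was called higher in lining: Cdh23, a cadherin of the inner ear hair cells, had 28 counts in lining and 0 in interstitial, at least 11-fold higher against a floor of 3 counts over the interstitial group (edgeR, adjusted p = 0.0458). The Cdh23 call was lost in all 9 fits that left out 1 library, with adjusted p up to 0.135, and without C and F (0.0682).

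**Figure D5:**
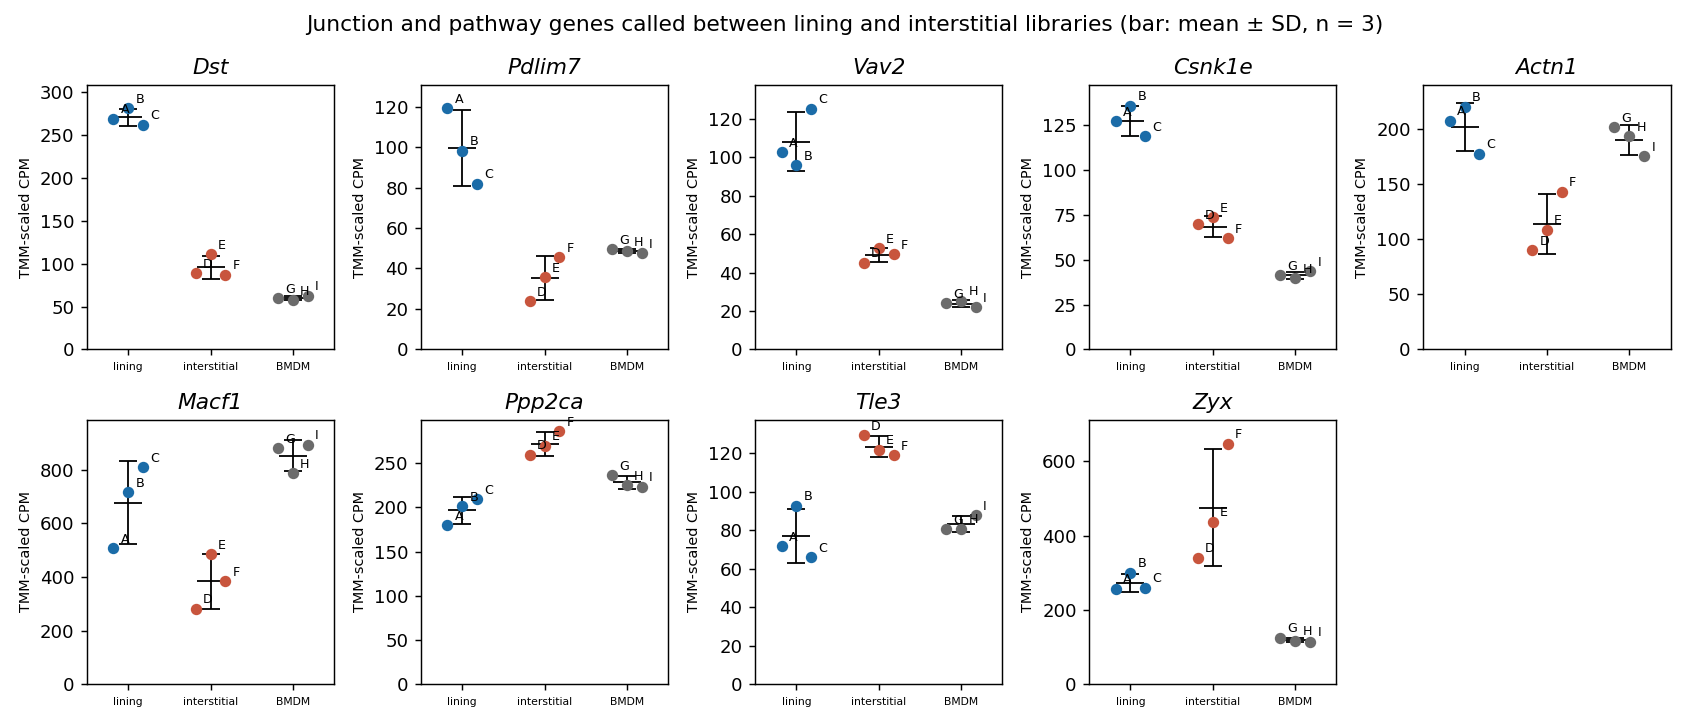
TMM-scaled CPM per library (linear axes, mean ± SD, n = 3) of 9 pathway genes called between lining and interstitial, with lining at the left, interstitial in the middle and BMDM at the right; Cdh23 is not drawn because interstitial had 0 counts. Dst averages 271 CPM in lining and 95.8 CPM in interstitial, and Zyx averages 272 CPM in lining and 475 CPM in interstitial.

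Against BMDM, 30 of the 83 pathway genes were called higher and 7 lower in lining, 44.6% of them beside 43.5% of all genes, and 28 higher and 12 lower in interstitial, 48.2% beside 44.8%. Their median log2 fold changes were 0.36 in lining and 0.26 in interstitial, beside 0.00014 and -0.01 over all genes. The shares called in either direction lie near those of all genes, but the directions were less even. Of all genes, 23.1% were called higher and 20.5% lower in lining, and 23.4% higher and 21.3% lower in interstitial. The pathway calls lay more on the higher side than that in both comparisons.

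Within the catenin family, 1 of 4 tested was called higher and 1 lower than BMDM in each synovial group. Ctnnd2, δ-catenin, best known from neurons, had 9 counts in lining, 20 in interstitial and 885 in BMDM, with log2 fold changes of -4.50 ± 0.65 for lining (edgeR, adjusted p = 1.66e-04) and -3.54 ± 0.59 for interstitial (adjusted p = 4.47e-04). Arvcf, another p120 family member, was at 9.12 ± 5.58 CPM in lining, 12.2 ± 3.59 CPM in interstitial and 1.92 ± 0.28 CPM in BMDM, with log2 fold changes of 2.29 ± 0.53 (adjusted p = 0.00440) for lining and 2.66 ± 0.53 (adjusted p = 0.00166) for interstitial. Without B the lining value of Arvcf was 1.63 (adjusted p = 0.0411). Ctnnd2, like Pkp4, was lower than BMDM in both synovial groups, and Arvcf was higher in both.

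Among Wnt receptors and transducers, 9 of 14 were called higher and 1 lower in lining than in BMDM, and 7 higher and none lower in interstitial. Porcn, the acyltransferase that lipid-modifies Wnt ligands, was at 14.4 ± 2.49 CPM in lining, 16.2 ± 2.65 CPM in interstitial and 0.511 ± 0.214 CPM in BMDM, with log2 fold changes of 4.78 ± 0.46 for lining (edgeR, adjusted p = 5.75e-06) and 4.96 ± 0.46 for interstitial (adjusted p = 4.10e-06). The Frizzled receptor Fzd6 had 57 counts in lining, 134 in interstitial and 6 in BMDM, with a log2 fold change for lining against BMDM of 4.74 ± 1.04 (edgeR, adjusted p = 0.00317), which was 3.67 without B. Among nuclear partners, Bcl9l, a co-activator of β-catenin, was at 73.7 ± 11.6 CPM in lining, 79.2 ± 13.4 CPM in interstitial and 21.1 ± 1.40 CPM in BMDM, with log2 fold changes of 1.81 ± 0.19 for lining (adjusted p = 9.46e-06) and 1.92 ± 0.18 for interstitial (adjusted p = 5.57e-06).

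Of 5 Wnt target genes tested, 1 was called higher and 1 lower in lining, and 2 higher and 1 lower in interstitial. Ccnd1, cyclin D1, which is also driven by growth factors, was at 88.2 ± 15.6 CPM in lining, 99.4 ± 30.4 CPM in interstitial and 839 ± 62.0 CPM in BMDM, with log2 fold changes of -3.24 ± 0.21 for lining (edgeR, adjusted p = 2.48e-07) and -3.09 ± 0.21 for interstitial (adjusted p = 3.49e-07). Axin2, the feedback inhibitor widely used as a readout of canonical Wnt signalling, had 1 count in lining, 28 in interstitial and 4 in BMDM, and was called higher in interstitial than in BMDM (4.95 ± 1.28, adjusted p = 0.00770), a call lost without G or I (adjusted p up to 0.0679). Without D the Axin2 value was 3.996. Of 9 cadherin turnover genes, 1 was called higher and 2 lower in lining than in BMDM, and 1 higher and 4 lower in interstitial. Numb, an endocytic adaptor on this list, was lower than BMDM in both synovial groups, at 52.6 ± 6.98 CPM in lining, 51.8 ± 2.5 CPM in interstitial and 127 ± 1.15 CPM in BMDM, with log2 fold changes of -1.28 ± 0.15 (edgeR, adjusted p = 2.45e-05) for lining and -1.30 ± 0.15 (adjusted p = 1.98e-05) for interstitial. Rab11a of the same list was higher in both, with log2 fold changes of 1.32 ± 0.15 (edgeR, adjusted p = 2.32e-05) for lining and 0.98 ± 0.15 (adjusted p = 2.24e-04) for interstitial.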

How the data were processed

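The authors deposited whole-number read counts per gene with no normalisation, assigned per the file headers with featureCounts 1.6.1 to Ensembl 91 exons (GRCm38), with reverse-stranded counting and no option for reads overlapping several genes. Other tools listed by the submitters' processing notes, without settings, are STAR 2.5.4a, cutadapt 1.15, bcl2fastq 2.17.1.14 and DESeq2 1.20.0. Per the labels' protocols, 500 ng of RNA went into stranded, poly(A)-selected libraries read as single 101 bp reads. These carry no molecular identifiers, so copies of 1 molecule cannot be told from separate molecules. Intervals cover counting error of reads only and may be too narrow where reads are copies. Of 53465 genes, 53274 had a symbol. Genes with low counts were left out (filterByExpr, minimum count 10, total 15), leaving 12610. Tests used edgeR 4.0.16 (TMM, robust quasi-likelihood, 1 mean per group, 6 residual degrees of freedom, Benjamini-Hochberg over all genes tested) in R 4.3.3. They were checked on simulated data with the same spread setting for every gene and group, which does not cover groups of unequal spread. DESeq2 1.42.0 and limma-voom (limma 3.58.1), other scalings and filters, and leaving out libraries were alternatives, and leaving out C and F together was added after seeing the data. A floor of 3 counts corresponds to 0.130 to 1.46 CPM in a library. The members and lists were chosen with earlier results of these data known. All members are named. Of the other pathway genes, those named were every one called between lining and interstitial and, against BMDM, examples from the 3 largest called differences per list. RefSeq promoters were found for 5 of 7 members. For each of Jup and Pkp4 the 3 genes of nearest profile were sought, and 1 of those for Pkp4 is not reported here.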

Additional observations from a re-analysis of the deposited data

How the results depend on the processing

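The Jup calls, the Pkp4 calls against BMDM and the Ctnna1 call for interstitial against BMDM held under all 16 alternatives. Low counts limit Cdh1 and Dsp, and the lining and interstitial libraries are the shallowest. Counts of Cdh1 did not follow depth among the synovial libraries. The deepest of these, B and E, had 7 counts each, against 26 in C and 143 in F. For lining against interstitial, 730 genes were called (edgeR), 1298 with DESeq2, 366 with those 6 samples alone, 1107 without C and F, and 396 to 888 on leaving out 1 library. Members called there numbered 1, 2 with DESeq2, 2 with limma-voom, 3 without C and F, and 1 to 3 on leaving out 1 library. For lining against BMDM, 4 members were called, 2 without C and F, and 2 to 4 on leaving out 1 library, with 3945 to 6406 genes against 5490. For interstitial against BMDM, 3 to 4 members were called on leaving out 1 library, with 4150 to 6271 genes against 5643. Signs turned only for Cdh1 and Ctnnd1. Cdh1 was 2.92 without F and 0.39 without C and F for lining minus interstitial. For lining minus BMDM, Cdh1 was -1.90 without C, -1.91 without C and F and -0.74 with limma-voom. For interstitial minus BMDM, Cdh1 was -2.37 without F, -2.29 without C and F and -0.45 with limma-voom. Ctnnd1 for lining minus interstitial was 0.15 without A, 0.07 without D and 0.08 without E. On leaving out 1 library in turn, Cdh1 ran between -4.05 and 2.92 for lining minus interstitial, -1.90 and 1.15 for lining minus BMDM, and -2.37 and 2.75 for interstitial minus BMDM, and Ctnnd1 between -0.25 and 0.15 for lining minus interstitial. The cause was not tested. No paired analysis was made, because each sample has its own letter in the labels and no number is shared between groups.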
